A study of Mus musculus with 6 samples.

Results

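The genes described here encode 3 steroid hormone receptors and 6 transcription regulators of luminal mammary epithelium. They are Esr1, Pgr and Nr3c1 (the receptors for oestrogen, progesterone and glucocorticoids), Gata3, Foxa1 and Tfap2c (luminal lineage factors), Elf3 and Ehf (epithelial ETS factors), and Cited1 (a transcriptional coactivator). A probe set is a group of array probes that gives 1 value and reads 1 or more transcripts. The members were all probe sets whose platform annotation gives exactly 1 gene symbol and 1 of these 9 symbols. There were 15 such probe sets among 22626, 3 each for Nr3c1, Tfap2c and Ehf and 1 for each other gene. Values are on the log2 scale, on which 1 unit is a factor of 2, and the probe set with the highest mean over the arrays (the brightest) stands for its gene unless stated.

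The samples were mammary tumours of F1 females, adult per the series' design text, from crosses of PyMT transgenic mice with an inbred strain. PyMT stands for the middle T antigen of polyomavirus, an oncogene of mammary epithelium. Both groups carry this transgene and there was no tumour-free group, and the labels do not state its promoter. The other parent was AKR/J in 3 samples (AKR F1) and DBA/2J in 3 samples (DBA F1), and the question was which transcripts differ between the 2 genotypes at baseline. Each tumour RNA was read on 1 Affymetrix array. Each sample title carries its own number, and the labels do not say whether these numbers stand for animals, so a p-value reflects only how these samples vary, and 3 arrays per group limit the precision.

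As background, steroid receptors are transcription factors that bind DNA after binding their hormone. In the mammary gland the oestrogen and progesterone receptors are found in a subset of luminal cells, called hormone-sensing cells, which signal to their neighbours, and Pgr is a classical target of the oestrogen receptor. Gata3 is required to build and keep the luminal lineage, Foxa1 opens chromatin for the oestrogen receptor, and Tfap2c takes part in luminal gene expression. The glucocorticoid receptor is found in most cell types and supports milk production.

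Promoter sequences are shown for 4 of the genes: Elf3, the gene with the steadiest difference between the crosses, Foxa1 and Gata3, the lineage factors, and Pgr, the oestrogen receptor target. They are the 250 bases before the RefSeq start of each gene (GRCm38.p6, the C57BL/6J reference, not the strains studied), on the coding strand: Elf3 at chr1:135258473-135258722 (minus), Gata3 at chr2:9878601-9878850 (minus), Pgr at chr9:8899583-8899832 (plus) and Foxa1 at chr12:57546112-57546361 (minus). Of the 9 genes, 6 were in the RefSeq promoter table, which lacked Nr3c1, Tfap2c and Ehf. Capitals mark matches on either strand to any of 6 motifs that members of these families bind. GGTCA is an arm of the oestrogen response element, and AGAACA is an arm of the element shared by the progesterone and glucocorticoid receptors. AGATAA is a motif of GATA factors, TGTTTAC of forkhead factors such as Foxa1, GCCNNNGGC of the AP-2 family of Tfap2c, and GGAAG is the core bound by ETS factors.
Elf3: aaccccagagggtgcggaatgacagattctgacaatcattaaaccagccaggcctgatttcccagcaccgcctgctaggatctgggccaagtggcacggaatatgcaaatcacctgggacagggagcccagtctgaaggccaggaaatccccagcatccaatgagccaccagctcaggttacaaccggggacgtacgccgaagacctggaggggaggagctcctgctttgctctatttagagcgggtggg
Gata3: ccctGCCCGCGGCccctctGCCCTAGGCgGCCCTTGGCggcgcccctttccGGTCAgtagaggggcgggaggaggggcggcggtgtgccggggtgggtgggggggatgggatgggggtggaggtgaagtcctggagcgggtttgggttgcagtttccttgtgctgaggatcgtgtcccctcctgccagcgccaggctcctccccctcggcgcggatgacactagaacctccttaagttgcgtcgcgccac
Pgr: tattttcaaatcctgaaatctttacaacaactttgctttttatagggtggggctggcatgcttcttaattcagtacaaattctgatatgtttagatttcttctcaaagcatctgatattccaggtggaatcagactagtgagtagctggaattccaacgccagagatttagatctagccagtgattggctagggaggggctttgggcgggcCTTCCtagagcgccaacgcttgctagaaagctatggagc
Foxa1: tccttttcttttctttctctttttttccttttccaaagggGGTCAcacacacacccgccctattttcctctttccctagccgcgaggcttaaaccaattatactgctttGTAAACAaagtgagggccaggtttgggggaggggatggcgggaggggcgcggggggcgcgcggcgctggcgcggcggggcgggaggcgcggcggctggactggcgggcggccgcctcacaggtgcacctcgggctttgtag

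The Elf3 window held none of the 6 motifs, and the Pgr window held 1 ETS core and no oestrogen response element arm. The Foxa1 window held 1 forkhead motif starting 141 bases before the start of the gene and 1 oestrogen response element arm starting at 210 bases. The Gata3 window held 3 AP-2 motifs and 1 oestrogen response element arm starting 199 bases before the start. No marked stretch overlapped another in these 4 windows. Among 32851 RefSeq promoter windows of the same length, 35.2% held GGTCA, 16.1% AGAACA, 9.99% AGATAA, 3.17% TGTTTAC, 13.7% GCCNNNGGC and 64.1% GGAAG. A match describes the letters only, and no factor binding was measured here.

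Several arrays stood apart and touch the values below. AKR replicate 2 had the narrowest spread of values over all probe sets (SD 1.76, against 1.90 to 2.02 on the others), with its dim probe sets higher and its bright ones lower. It also carried the highest mean of 5 salivary gland markers, 11.65 against 6.99 to 8.61 elsewhere. DBA replicate 1 carried the highest mean of 9 skeletal muscle markers (11.41, against 6.02 to 9.62) and of 5 adipocyte markers (8.67, against 6.16 to 6.98). The control probe set for the 5' end of Gapdh, a check of RNA quality, read 11.84 on DBA replicate 1 and 12.19 on DBA replicate 3. It read 12.49 to 13.45 elsewhere, while the 3' end read 12.80 to 13.57 on all arrays. The 5' actin control was also lowest on these arrays (12.70 and 13.24), and the part of this in the results was not tested. Replicate 2 was the lowest array of its cross for fibroblast markers (means 9.19 in AKR and 8.39 in DBA F1, against 10.46 to 10.72 on the other arrays), macrophage markers (8.97 and 9.39) and alveolar and luminal progenitor markers (10.94 and 10.61). The 7 luminal epithelium markers, which check the labelled tissue, had means of 11.64 to 11.99 in AKR F1 and 11.54 to 11.83 in DBA F1 tumours, with Epcam at 12.78 to 13.17 on all 6 arrays. In bulk tumour RNA, fewer cells of a type and less RNA per cell cannot be told apart, and neither can a strain difference in the probed sequence and a difference in RNA amount.

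**Figure D1:**
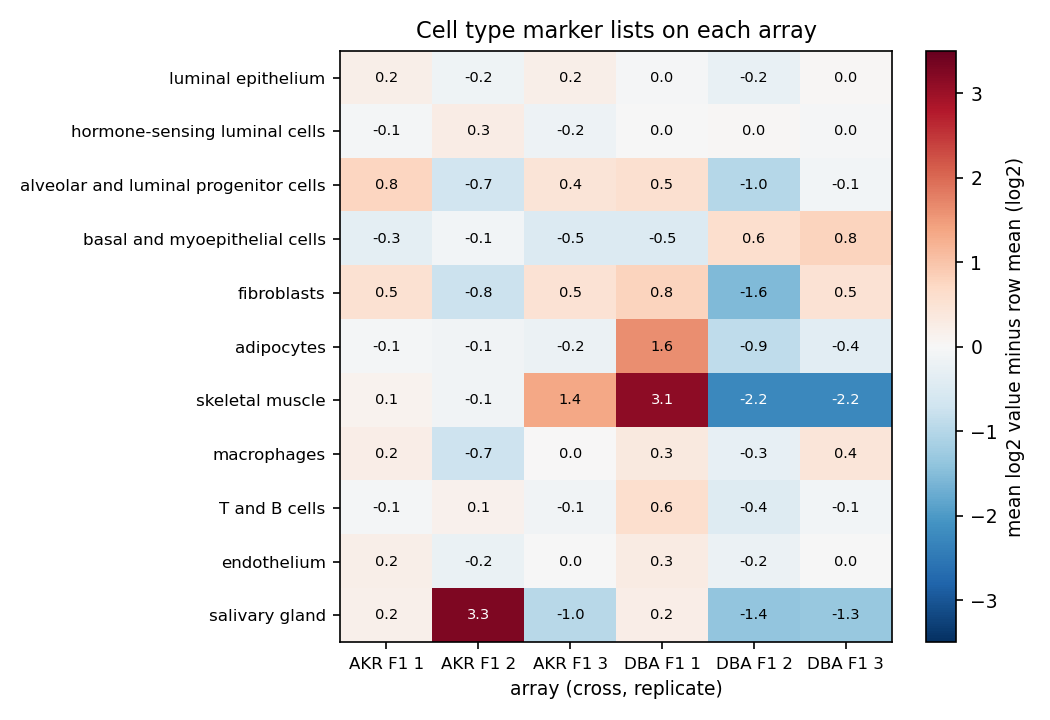
Mean log2 value of each cell type marker list on each array (columns, cross and replicate), minus that list's mean over the 6 arrays; red is above and blue below the list's own mean. Salivary gland markers stand high on AKR replicate 2 and skeletal muscle markers on DBA replicate 1, while the luminal epithelium mean differs little between arrays.

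Differences between the crosses were small, and no member passed over all probe sets. By limma, 0 of the 15 probe sets had an adjusted p under 0.05, where 0.0972% of all 22626 did, and the adjusted p ran from 0.0851 to 0.982. At an unadjusted limma p under 0.05 there were 3 of 15 (Elf3, Esr1 and a probe set of Nr3c1), against 26.1% of all probe sets and 25.2% of all genes at their brightest probe set. The same 3 were the member probe sets whose crosses were fully separated, as were 39.2% of all probe sets. The members were thus not called more often than the array as a whole. At the brightest probe set, 4 genes lay higher in AKR F1 and 5 in DBA F1 tumours, with a median difference (AKR minus DBA) of -0.19 against 0.051 over all 12393 genes. The median was -0.045 after quantile normalization, -0.35 when arrays were scaled to the luminal epithelium markers and 0.17 without DBA replicate 3. The split was 3 and 6 when arrays were centred on their medians or scaled to those markers, and 5 and 4 without DBA replicate 3.

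**Figure D2:**
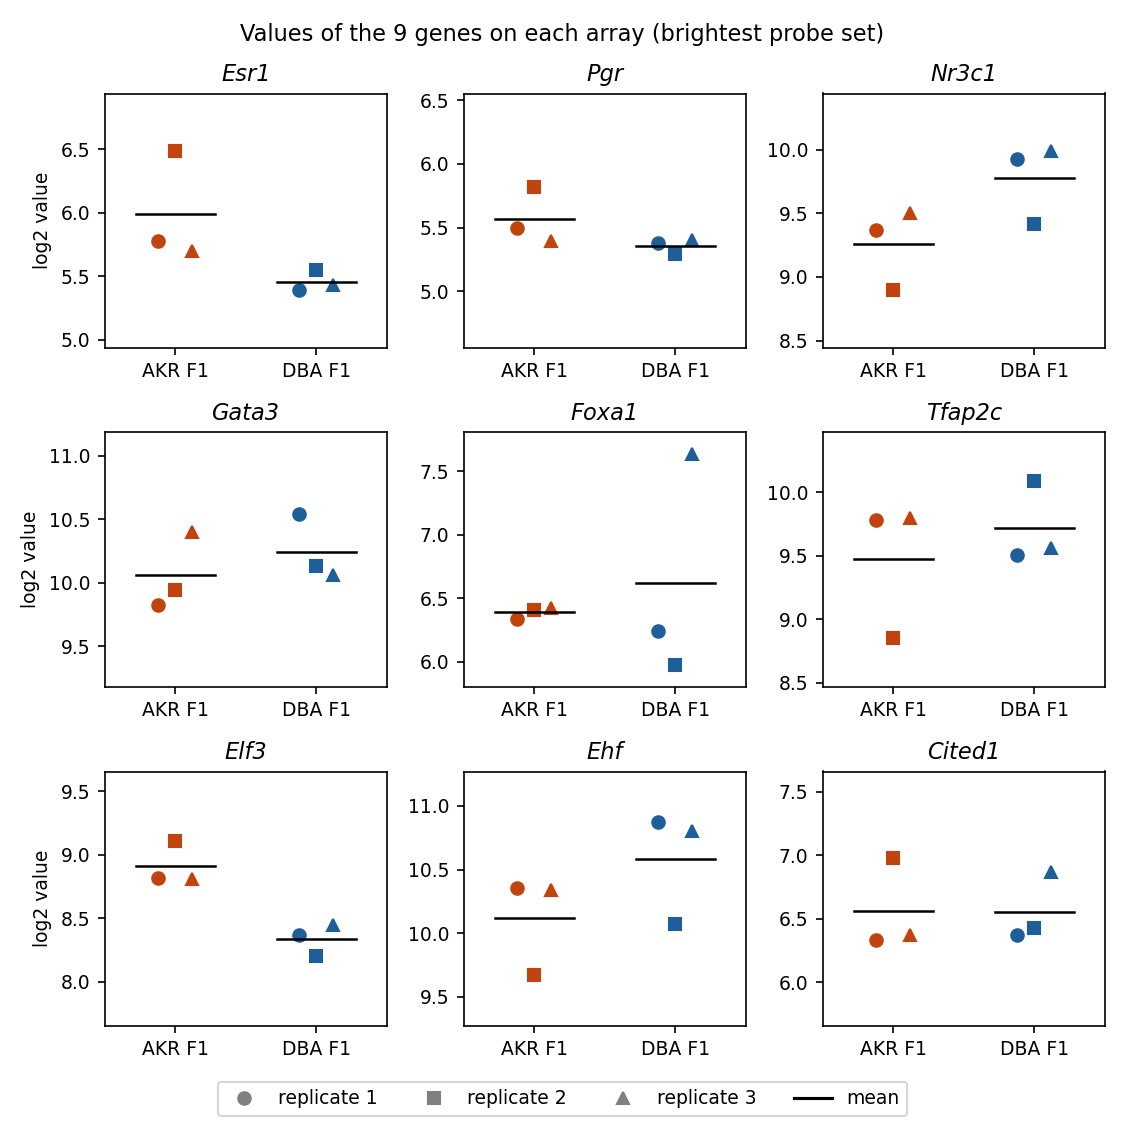
Log2 value of each gene's brightest probe set on the 3 AKR F1 and 3 DBA F1 arrays; symbols mark the replicate, bars the mean, and each panel spans 2 log2 units. The crosses do not overlap for Elf3 and Esr1, Foxa1 stands high on DBA replicate 3 alone, and AKR replicate 2 is the highest array for Esr1, Pgr, Elf3 and Cited1 and the lowest for Nr3c1, Tfap2c and Ehf.

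The plot of values by array shows that the receptor genes went different ways. Esr1, the oestrogen receptor alpha gene, read 5.78, 6.49 and 5.70 in AKR F1 and 5.39, 5.55 and 5.43 in DBA F1 tumours. All AKR values lay above all DBA values, and AKR replicate 2 stood well above the other 5. The difference was 0.53 (SE 0.219, 95% interval 0.012 to 1.05), and it did not pass (limma adjusted p = 0.187; exact two-sided permutation p = 0.1, the smallest that 3 against 3 arrays allow). Without AKR replicate 2 it was 0.28 (limma adjusted p = 0.184).

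Pgr, the progesterone receptor gene, read 5.49, 5.82 and 5.40 in AKR F1 and 5.37, 5.29 and 5.40 in DBA F1 tumours. The crosses overlapped, and AKR replicate 2 was again the highest array. The difference was 0.21 (95% interval -0.13 to 0.55, limma adjusted p = 0.336), and 0.089 without AKR replicate 2. Probe sets in the same decile of mean level as Esr1 and Pgr, the second of 10, had a median difference of 0.23.

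Both receptors read low, in the range of the probe sets for Kdm5d and Uty and above that for Eif2s3y. These are 3 Y-linked genes, whose transcripts female mice lack. Kdm5d read 5.59 to 6.69, Uty 4.92 to 6.06 and Eif2s3y 3.93 to 4.11 over the 6 arrays, and Kdm5d and Uty were, like Esr1 and Pgr, highest on AKR replicate 2 (6.69 and 6.06). These 3 probe sets also differed between the crosses in the direction of Esr1, with a median of 0.44 (0.13 without AKR replicate 2) and list means of 5.06 to 5.61 on the AKR and 4.86 to 4.94 on the DBA arrays, which do not overlap. For Esr1 and Pgr a reading at background therefore cannot be told apart from a low level of RNA, and differences at such readings can be compressed. The Y-linked genes were chosen for this after the values were seen, and whether their probe sets read other transcripts was not tested.

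Nr3c1, the glucocorticoid receptor gene, lay higher in DBA F1 tumours at each of its 3 probe sets. The brightest read 9.37, 8.90 and 9.50 in AKR F1 and 9.93, 9.41 and 9.99 in DBA F1 tumours. The crosses overlapped there, since DBA replicate 2 fell between the AKR values, and replicate 2 was the lowest array of each cross, as it was for fibroblast, macrophage and alveolar markers, whose part in the result was not tested. The difference was -0.52 (SE 0.223, 95% interval -1.05 to 0.010, limma adjusted p = 0.196), 1.43-fold higher in DBA F1 tumours, and -0.34 without AKR replicate 2. The next Nr3c1 probe set gave -0.54 (limma adjusted p = 0.229), and -0.28 without AKR replicate 2.

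The dimmest Nr3c1 probe set showed the widest gap of all 15 member probe sets. It read 7.08, 6.69 and 6.92 in AKR F1 (mean 6.90 ± 0.20) and 7.55, 8.16 and 8.11 in DBA F1 tumours (mean 7.94 ± 0.34; SD, n = 3 each). The crosses did not overlap, and DBA replicate 1 was the lowest of its cross here but not at the other Nr3c1 probe sets. The difference was -1.04 (SE 0.201), a 2.05-fold higher value in DBA F1 tumours, with a limma adjusted p of 0.0851 and an exact two-sided permutation p of 0.1. Without DBA replicate 1 it was -1.23 and passed (limma adjusted p = 0.0352, where 1.16% of all probe sets passed), and without AKR replicate 2 it was -0.93 and did not (limma adjusted p = 0.122). Probe sets of the same decile of level had a median difference of 0.12. Skeletal muscle and adipocyte markers were highest on DBA replicate 1, and their part in the result was not tested.

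The luminal lineage factors gave no separation of the crosses. Gata3 read 9.83, 9.94 and 10.40 in AKR F1 and 10.54, 10.13 and 10.06 in DBA F1 tumours. The values of the 2 crosses interleave, and the difference of -0.19 (95% interval -0.67 to 0.30, limma adjusted p = 0.539) was close to the -0.21 of its decile. With 1 array left out it ran from -0.36 (without AKR replicate 3) to -0.038 (without DBA replicate 1), and it was -0.070 without AKR replicate 1 and -0.13 without AKR replicate 2. After quantile normalization it was 0.054, on the other side of 0.

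Foxa1 varied most over the arrays, by 1.65 from the lowest to the highest. It read 6.33, 6.41 and 6.43 in AKR F1 and 6.25, 5.98 and 7.63 in DBA F1 tumours. DBA replicate 3 stood alone, while the other 5 arrays lay within the range of the Y-linked Kdm5d probe set pooled over all arrays. The top of that range was the AKR replicate 2 reading, and Kdm5d read lower on the other arrays. The range therefore does not place Foxa1 at background array by array. The difference was -0.23 (95% interval -1.19 to 0.74, limma adjusted p = 0.708), and 0.28 without DBA replicate 3 (limma adjusted p = 0.458), so this 1 array set its sign. On that array the mean of 10 basal and myoepithelial markers was also the highest of the 6 (9.06), but DBA replicate 2, where Foxa1 was lowest, came next (8.87). Its salivary gland marker mean was 7.07 and its luminal epithelium marker mean 11.83, both within the range of the other arrays, and their part in the reading was not tested.

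Tfap2c read 9.78, 8.85 and 9.80 in AKR F1 and 9.51, 10.09 and 9.56 in DBA F1 tumours. AKR replicate 2 was the lowest array at all 3 Tfap2c probe sets. The differences were -0.24, -0.38 and -0.56 from the brightest to the dimmest (limma adjusted p = 0.584, 0.391 and 0.306), and without AKR replicate 2 they were 0.073, -0.067 and -0.13. Without DBA replicate 2 the brightest probe set differed by -0.055.

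The ETS factors Elf3 and Ehf, epithelial transcription factors of the same family, lay in opposite directions. Elf3 read 8.82, 9.11 and 8.80 in AKR F1 (mean 8.91 ± 0.17) and 8.37, 8.20 and 8.45 in DBA F1 tumours (mean 8.34 ± 0.13; SD, n = 3 each). Every AKR array lay above every DBA array. The difference was 0.57 (SE 0.139, 95% interval 0.24 to 0.90), 1.49-fold, and did not pass over all probe sets (limma adjusted p = 0.104; exact two-sided permutation p = 0.1). It was 0.47 to 0.63 with any 1 array left out and 0.71 after quantile normalization, and its decile had a median difference of -0.072. The value passed with array weights (0.45, limma adjusted p = 0.0303), a setting in which 16.4% of all probe sets passed. It was 0.41 (limma adjusted p = 0.299) when arrays were scaled to the mean of the 7 luminal epithelium markers.

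Ehf read 10.35, 9.67 and 10.34 in AKR F1 and 10.87, 10.07 and 10.81 in DBA F1 tumours at its brightest probe set. The crosses overlapped, and replicate 2 was the lowest array of each, again as for fibroblast, macrophage and alveolar markers, whose part was not tested. The difference was -0.46 (95% interval -1.13 to 0.20, limma adjusted p = 0.295). Leaving out AKR replicate 2 gave -0.24, leaving out DBA replicate 2 gave -0.72, and quantile normalization gave -0.22. The other Ehf probe sets gave -0.29 and -0.13. With both AKR replicate 2 and DBA replicate 1 left out, the 3 Ehf probe sets gave -0.095, 0.14 and 0.057. Subtracting Ehf from Elf3 within each array removes a shift common to all probe sets, but not one that changes with level. The median differences of their deciles of level were -0.072 for Elf3 and -0.21 for Ehf. The subtraction gave -1.54, -0.56 and -1.53 in AKR F1 and -2.51, -1.87 and -2.36 in DBA F1 tumours. These did not overlap, and the crosses differed by 1.04 (exact two-sided permutation p = 0.1). The pair was chosen after the 2 genes were seen to lie in opposite directions, so neither the separation nor this p is independent support. With the dimmer Ehf probe sets the difference was 0.87 and 0.70, the crosses overlapped and the exact permutation p was 0.2 in both.

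Cited1, a coactivator that binds the oestrogen receptor and marks hormone-sensing luminal cells, read 6.34, 6.98 and 6.38 in AKR F1 and 6.37, 6.43 and 6.87 in DBA F1 tumours. In each cross 1 array stood above the other two, and the means differed by 0.0085 (95% interval -0.53 to 0.54, limma adjusted p = 0.982). The sign changed in 8 other settings, and without AKR replicate 2 the value was -0.20. Its readings, like those of Foxa1, overlapped the pooled range of the Y-linked Kdm5d probe set, whose top came from AKR replicate 2 alone.

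**Figure D3:**
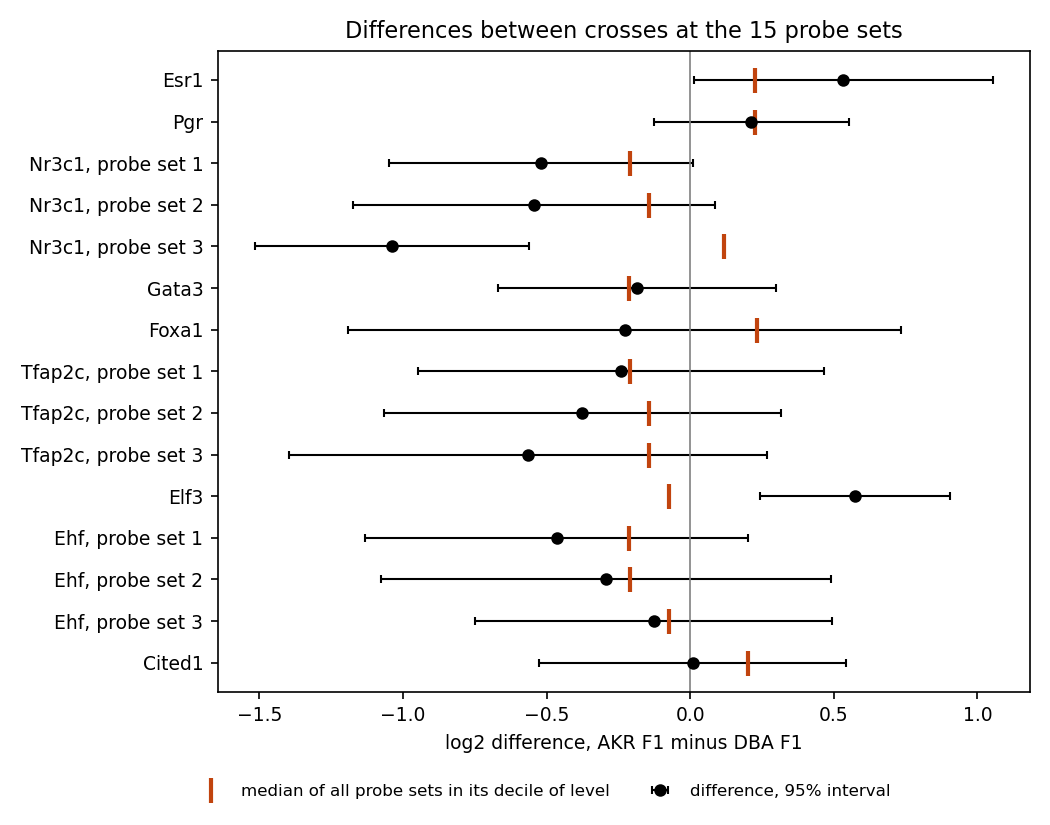
Log2 difference (AKR F1 minus DBA F1) at each of the 15 probe sets, ordered from brightest to dimmest within a gene, with its 95% interval from limma; red ticks give the median difference of all probe sets in the same decile of mean level. The intervals of Esr1, Elf3 and the dimmest Nr3c1 probe set lie off 0, and the differences of Pgr, Gata3 and the brightest Tfap2c probe set lie close to their ticks.

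The red ticks in the plot of differences show that dim probe sets read higher on the AKR arrays and bright ones lower. Median differences over all probe sets ran from 0.23 in the third decile of level to -0.21 in the tenth. Relative to its own decile, Elf3 differed by 0.65, Esr1 by 0.31, the brightest Nr3c1 probe set by -0.31 and the dimmest by -1.16, Foxa1 by -0.46 and Ehf by -0.25. Pgr (-0.012), Gata3 (0.027) and Tfap2c (-0.031) lay on their decile's median, and Cited1 differed from it by -0.19.

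**Figure D4:**
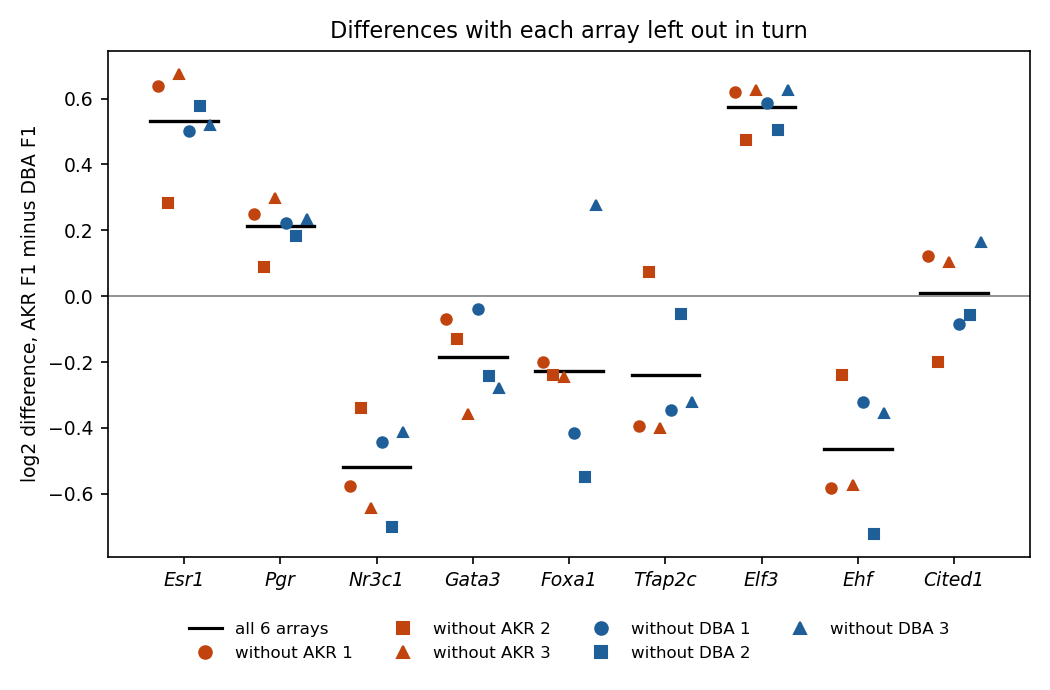
Log2 difference (AKR F1 minus DBA F1) of each gene's brightest probe set with all 6 arrays (bar) and with 1 array left out in turn (points; red for AKR, blue for DBA arrays). Elf3 stays between 0.47 and 0.63, Esr1 drops to 0.28 without AKR replicate 2, and Foxa1, Tfap2c and Cited1 cross 0.

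Genes whose profile over the 6 arrays was nearest to that of the 3 most variable members were sought among all genes, by the root mean square difference of centred values. Nearest to Foxa1 were Tpsab1, a mast cell tryptase (0.16), and Prtn3, a neutrophil protease (0.22), both highest on DBA replicate 3 (7.59 and 9.06). Nearest to Tfap2c were Rnf128 (0.066) and Cdkn2d (0.090), and nearest to Ehf were Ppt1 (0.069) and Usp16 (0.071). These distances are over 6 arrays and were sought among 12393 genes.

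Other genes of the same families and pathways were taken from 7 lists of 101 measured genes in all, of which 0 passed by limma over all probe sets, where 0.0565% of genes passed at their brightest probe set. At an unadjusted limma p under 0.05, 12 of the 101 were higher in AKR F1 and 18 higher in DBA F1 tumours, against 12.6% of all genes in each direction. Whatever their p, 54.8% of all genes lay higher in AKR F1 tumours, and 5606 of 12393 lay higher in DBA F1 tumours. Among family relatives of the 9 genes, 14 of 19 lay higher in AKR F1 tumours (median 0.24), 5 of them at an unadjusted limma p under 0.05 and 1 in the other direction. The median was 0.17 relative to each gene's own decile of level, and 0.075 when scaled to luminal markers. Gata2, a GATA factor of blood and endothelial cells, read 8.69, 8.68 and 8.47 in AKR F1 and 8.22, 7.97 and 7.98 in DBA F1 tumours (limma adjusted p = 0.101). The orphan receptor genes Esrra and Esrrb differed by 0.59 and 0.57, and Gata4 by 0.61. Esrrb and Gata4 were dim, in deciles of level with a median difference of 0.23, and both read highest on AKR replicate 2. Without that array they differed by 0.38 and 0.42. The relative with an unadjusted limma p under 0.05 in the other direction was Elf1, an ETS factor gene. It differed by -1.03 (limma adjusted p = 0.168), and by -0.64 without AKR replicate 2. Elf5, the ETS factor of milk-producing alveolar cells, differed by -0.066 (0.17 without AKR replicate 2), and Esr2, the oestrogen receptor beta gene, by 0.23 (0.10 without AKR replicate 2).

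Other luminal transcription factors lay higher in AKR F1 tumours in 10 of 17 cases (median 0.052), in 12 after quantile normalization, 9 after centring and 8 when scaled to luminal markers. As deposited, 54.8% of all genes lay higher in AKR F1 tumours. Hey1, a Notch target, read 10.35, 10.09 and 10.33 in AKR F1 and 11.04, 10.91 and 10.84 in DBA F1 tumours, without overlap (difference -0.67, limma adjusted p = 0.0847). The differentiation factors Runx1 (0.69), Grhl2 (0.39) and Ovol1 (0.39) lay the other way and did not pass.

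Oestrogen response genes lay higher in AKR F1 tumours in 13 of 18 cases with a median of 0.071, where 54.8% of all genes did. The count was 11 after quantile normalization or centring and 7 when scaled to luminal markers. By unadjusted limma p under 0.05, against 12.6% of all genes in each direction, 3 lay higher in AKR F1 tumours and 1 lay lower. The latter was the chemokine gene Cxcl12, at 8.77, 7.62 and 8.49 in AKR F1 and 9.56, 9.64 and 9.44 in DBA F1 tumours (difference -1.25, limma adjusted p = 0.0992, and -0.92 without AKR replicate 2). The former were Rara, a retinoic acid receptor gene (0.87), the receptor kinase gene Ret (0.56) and Greb1, a direct target of the oestrogen receptor (0.32), which read at most 5.52. The classical target Tff1 differed by 0.32 and Xbp1 by 0.023.

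Of 4 measured progesterone response genes, Id4 was the 1 with an unadjusted limma p under 0.05, as had 25.2% of all genes. Id4, which is also a basal cell regulator, read 6.23, 6.19 and 6.15 in AKR F1 and 6.28, 9.49 and 8.43 in DBA F1 tumours. It stood high on DBA replicates 2 and 3, the arrays with the highest basal and myoepithelial marker means (8.87 and 9.06, against 7.79 to 8.18 on the others), whose part in the result was not tested. The difference was -1.87 (limma adjusted p = 0.177), and -2.77 without DBA replicate 1, where it passed (limma adjusted p = 0.0215), as did 1.16% of all probe sets. Tnfsf11, the paracrine mediator RANK ligand, differed by 0.24, Ccnd1, or cyclin D1, by -0.51 and Wnt4 by -0.033.

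Glucocorticoid response genes lay higher in DBA F1 tumours in 15 of 18 cases, the same direction as the receptor gene Nr3c1, where 5606 of all 12393 genes did. Their median difference was -0.65, against 0.051 over all genes. Of the 18, 15 lay in the 2 brightest deciles, and relative to each gene's own decile the median was -0.50. With all probe sets of a gene averaged it was -0.39. In this list 8 of 18 had an unadjusted limma p under 0.05 in the direction of DBA F1 tumours and 1, Zbtb16 (0.50), in the other. Of all genes, 12.6% did so in each direction. After quantile normalization 12 of 18 lay higher in DBA F1 tumours, with a median of -0.48. The mean of the list was 9.55 to 10.01 on the AKR arrays and 10.28 to 10.54 on the DBA arrays. Fkbp5, which encodes a chaperone that feeds back on the receptor, read 10.08, 9.57 and 9.74 in AKR F1 and 10.43, 10.59 and 10.55 in DBA F1 tumours, without overlap. It differed by -0.72 (SE 0.159, limma adjusted p = 0.0934).

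Per1, a clock gene induced by glucocorticoids, read 9.091, 8.979 and 9.420 in AKR F1 and 10.001, 10.004 and 10.263 in DBA F1 tumours. Its difference was -0.93 (SE 0.159, limma adjusted p = 0.0837). Errfi1, an inhibitor of the EGF receptor, differed by -1.31 (limma adjusted p = 0.0924), and Tsc22d3, or GILZ, an anti-inflammatory target, by -1.15. The phosphatase gene Dusp1 differed by -1.60 (limma adjusted p = 0.107). Per1, Errfi1 and Dusp1 are also immediate early genes that growth factors and stress induce. Other classical targets did not separate the crosses: the metallothionein genes Mt1 (0.071) and Mt2 (-0.12), Ddit4 (-0.0046) and Nfkbia (-0.13) lay near 0. None of the 18 passed in the main comparison, and no list was tested as a set. When arrays were scaled to luminal markers 6 of the 18 passed, all higher in DBA F1 tumours. In that setting 5.13% of all probe sets passed, 1118 of 1160 of them higher in DBA F1 tumours, and the median of all probe sets moved from 0.049 to -0.11.

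Among cofactors and chaperones of the steroid receptors, 15 of 19 lay higher in DBA F1 tumours (median -0.25), and 13 with a median of -0.061 after quantile normalization. As deposited, 5606 of all 12393 genes lay higher in DBA F1 tumours. Of the 19, 13 lay in the 2 brightest deciles, and relative to each gene's own decile the median was -0.063. At an unadjusted limma p under 0.05 there were 5, all higher in DBA F1 tumours, against 12.6% of all genes in each direction. Ncoa4, a nuclear receptor coactivator and ferritin receptor, read 9.15, 8.68 and 9.34 in AKR F1 and 9.98, 10.03 and 10.24 in DBA F1 tumours (difference -1.03, limma adjusted p = 0.0837). The RNA helicase gene Ddx5 differed by -0.90 and Med1, a Mediator subunit that contacts nuclear receptors, by -0.48. Over all probe sets, the ninth decile of level, in which Ncoa4 and Med1 lay, had a median difference of -0.21.

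In steroid metabolism, 8 of 13 genes lay higher in DBA F1 tumours, where 5606 of all 12393 genes did. The median was -0.13, and -0.077 relative to each gene's own decile of level. When scaled to luminal markers 10 of 13 lay higher in DBA F1 tumours, as did 14018 of all 22626 probe sets. Hsd11b1, which converts inactive glucocorticoid to its active form, read 8.88, 8.70 and 8.83 in AKR F1 and 9.15, 10.12 and 9.74 in DBA F1 tumours. The crosses did not overlap, and the difference was -0.87 (limma adjusted p = 0.12). Without DBA replicate 1 it was -1.13 and passed (limma adjusted p = 0.0492), as did 1.16% of all probe sets. H6pd, which supplies that enzyme with its cofactor, differed by -0.48, and Hsd11b2, which inactivates glucocorticoid, by 0.52 (0.23 without AKR replicate 2). Hsd17b10, a mitochondrial dehydrogenase, differed by -0.29. None of these passed in the main comparison.

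**Figure D5:**
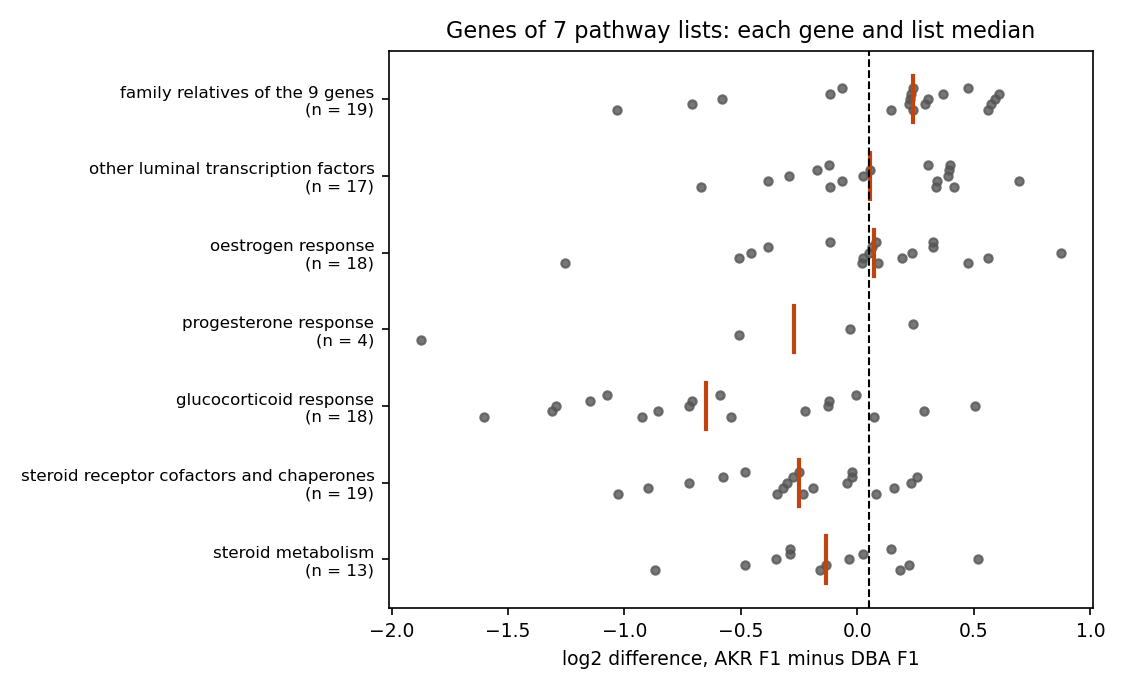
Log2 difference (AKR F1 minus DBA F1) of each measured gene (points, spread vertically only for legibility) in 7 lists, with the list median (red bar) and the median of all genes (dashed line, 0.051). Glucocorticoid response genes have the lowest median, -0.65, and family relatives the highest, 0.24.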

How the data were processed

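RNA came from snap-frozen tumours by the Trizol method, per the labels' protocols. The authors deposited log2 values of 22690 probe sets on each array. The submitters' processing notes name MAS5 and also RMA without saying which made the values. The scale was inferred from their span, 3.65 to 14.73. Detection calls were not used, and the labels do not state the background correction. Array medians were 7.52 to 7.57.

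After removal of 64 control probe sets, genes were named from the platform annotation where a probe set had 1 symbol (20380 probe sets). The crosses were compared by limma (version 3.58.1, R 4.3.3; lmFit with eBayes) with two-sided p-values adjusted by the Benjamini-Hochberg method across 22626 probe sets and a threshold of 0.05. The script was tested on simulated data. Errors with ± are SDs. Exact permutation tests used the 20 assignments of arrays to crosses. Replicate numbers follow accession order and only name samples. Alternatives were other normalizations, filters, priors, weights and thresholds, and arrays left out.

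Members and lists were chosen with earlier results of these data known. Named genes were all member probe sets, up to 4 genes per pathway list with the smallest p, and the 2 genes nearest in profile to each of the 3 most variable members. Others (Elf5, Esr2, Elf1, Tff1, Xbp1, Zbtb16, Tsc22d3, Mt1, Mt2, Ddit4, Nfkbia, Cldn3) were chosen after their values were seen. Figures were drawn with matplotlib 3.10.9.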

Additional observations from a re-analysis of the deposited data

How the results depend on the processing

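No paired analysis was possible because the labels give the crosses no shared replicate numbers. Results were recomputed with quantile normalization, centring on array medians, brighter probe sets only, a trended and robust prior, array weights (estimated gene by gene, since the joint estimate did not converge), 1 averaged value for each gene, a threshold of 0.10 and arrays left out. Scaling to luminal markers was chosen after seeing the data. At their brightest probe sets Elf3, Esr1, Pgr, Nr3c1 and Ehf kept their direction in every setting run for them. The dimmest Ehf probe set turned to 0.012 without AKR replicate 1 and, with AKR replicate 2 and DBA replicate 1 both left out, to 0.057, where the middle one turned to 0.14.

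The number of member probe sets that passed, 0 as deposited, was 2 with array weights (Elf3 and the dimmest of Nr3c1), and 1, the same Nr3c1 probe set, at an adjusted p of 0.10, without AKR replicate 2 and DBA replicate 1 together, and when scaled to luminal markers. It was 0 to 1 with 1 array left out. Pathway list genes that passed, 0 as deposited, numbered 23 with array weights, 7 at an adjusted p of 0.10, 6 without both arrays, 10 when scaled to luminal markers and 0 to 2 with 1 array left out. Over all probe sets 22 passed as deposited, 36 after quantile normalization, 102 among brighter probe sets, 3712 with array weights, 1 with 1 mean value per gene, 810 at an adjusted p of 0.10, 657 without both arrays, 1160 when scaled to luminal markers and 1 to 263 with 1 array left out.

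The median difference of the 9 genes, -0.19, ran from -0.25 to 0.17 with 1 array left out, the latter without DBA replicate 3. Cited1, 0.0085 as deposited, was -0.11 after quantile normalization, -0.015 after centring, -0.28 with array weights, -0.16 when scaled to luminal markers, -0.29 without both arrays, and -0.20, -0.084 and -0.056 without AKR replicate 2, DBA replicate 1 and DBA replicate 2; its highest value with 1 array left out was 0.17. Gata3 was 0.054 after quantile normalization and 0.019 without both arrays. Tfap2c was 0.10 with array weights and 0.073 without AKR replicate 2, and ran from -0.40 to 0.073 with 1 array left out. Foxa1 ran from -0.55 to 0.28 with 1 array left out, the latter without DBA replicate 3, and was -0.58 with array weights. The causes were not tested. Most readings of Esr1, Pgr, Foxa1 and Cited1 lay within the range of the Y-linked probe sets pooled over arrays, where a reading at background cannot be told apart from a low level of RNA. The top of that range was the Kdm5d reading on AKR replicate 2, so for Foxa1 and Cited1 it is not a comparison array by array.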
